A study of Homo sapiens with 12 samples.

Results

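IRF4 and the transcription factors that set the plasma cell against the B cell state were followed in MM.1S cells, an established human multiple myeloma line. The rule lists 9 genes by Ensembl identifier: IRF4 (ENSG00000137265_at), PRDM1 (ENSG00000057657_at), MAF (ENSG00000178573_at), POU2AF1 (ENSG00000110777_at), BCL6 (ENSG00000113916_at), PAX5 (ENSG00000196092_at), SPIB, BACH2 (ENSG00000112182_at) and IRF8 (ENSG00000140968_at). Of these, 8 were found among the 17710 genes of the expression table, and SPIB was not analysed here. The rule lists the genes by name and sets no threshold on a measured value.

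RNA from 3 independent experiments was hybridised to 12 Clariom S arrays, with 3 arrays in each of 4 groups. Control cells were untreated, and the labels give no culture time for them. The PIM group received PIM447, a pan-PIM kinase inhibitor, at 100 nM for 24 h. The Pd group received pomalidomide at 200 nM plus dexamethasone at 5 nM for 15 h. The PIM-Pd group received all 3 drugs at these doses for 10 h. Viability after treatment was between 74 and 81%. Since the exposure times differ, drug and time cannot be told apart in any contrast between groups, and all results come from a single cell line.

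In normal B cell development, PAX5, BCL6 and BACH2 hold cells in the B cell and germinal centre states, in part by repressing PRDM1. IRF4 and PRDM1 then drive the switch to the antibody-secreting plasma cell, and PRDM1 (BLIMP-1) in turn silences PAX5, BCL6 and other B cell genes. Myeloma cells keep the plasma cell programme and depend on IRF4 for survival. Pomalidomide makes the cereblon ubiquitin ligase degrade the Ikaros family proteins IKZF1 and IKZF3, which sustain IRF4 transcription in myeloma, and dexamethasone activates the glucocorticoid receptor.

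The main result concerned IRF4 and BACH2, which moved in opposite directions in the same treated groups. IRF4 signal was 2.15-fold lower with Pd and 2.18-fold lower with PIM-Pd than in control, whereas BACH2 signal was 1.72-fold and 1.67-fold higher. The IRF4 calls held under all 19 alternative settings, but the BACH2 calls were lost when some single arrays were left out. POU2AF1 was 1.38-fold lower with PIM-Pd. PRDM1, MAF, BCL6, PAX5 and IRF8 did not pass the test against control in any treated group, and no factor passed it with PIM alone.

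The 250 bases before the start sites of these opposed genes are shown because the regulators named above act on DNA, and both windows lie on chromosome 6 of GRCh38.p14. They were taken from RefSeq, which held start windows for 7 of the 8 genes. The IRF4 window is chr6:391502-391751 on the plus strand, and the BACH2 window is chr6:90296844-90297093 on the minus strand. Capitals mark matches on either strand to GGGAA (the core read by Ikaros family factors), AGAACA (a single hexamer of the glucocorticoid receptor element), GAAAGTG (a PRDM1 core), CACGTG (the MYC E-box), TATAAA (the TATA box) or TGACGTCA (the cyclic AMP response element).
IRF4: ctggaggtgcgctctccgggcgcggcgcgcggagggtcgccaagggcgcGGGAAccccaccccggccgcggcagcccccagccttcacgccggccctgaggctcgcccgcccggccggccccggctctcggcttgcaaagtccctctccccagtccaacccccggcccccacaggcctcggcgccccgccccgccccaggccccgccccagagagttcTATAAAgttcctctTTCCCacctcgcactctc
BACH2: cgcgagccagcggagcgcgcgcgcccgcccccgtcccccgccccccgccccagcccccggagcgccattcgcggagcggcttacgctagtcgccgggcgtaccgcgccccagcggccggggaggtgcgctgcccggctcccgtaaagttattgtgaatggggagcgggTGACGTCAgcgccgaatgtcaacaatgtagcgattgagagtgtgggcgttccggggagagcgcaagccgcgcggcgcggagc
The IRF4 window held GGGAA at 2 places, starting 201 and 18 bases before the start site, and TATAAA at 32 bases before it. GGGAA occurred in 59% of all 35116 start windows of this length and TATAAA in 10.7%. The BACH2 window held TGACGTCA at 82 bases before the start, which occurred in 1.65% of windows, and no GGGAA. The glucocorticoid receptor hexamer, held by 12.4% of windows, the PRDM1 core, held by 3.92%, and the E-box, held by 6.34%, had no match in either window. G and C made up 76% of the IRF4 window and 73.6% of the BACH2 window, against a median of 58% over all windows. The shares over all windows are thus not matched for base composition. These matches describe letters only and no binding was measured.

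Array signals are log2 values after RMA, so a difference of 1 is 2-fold, and signals of different genes are not compared because their probes differ. The median signal of the arrays lay between 4.81 and 4.89. IRF4, PRDM1, MAF, POU2AF1, PAX5 and BACH2 lay above the median of the array on all 12 arrays and IRF8 on 10. BCL6 lay below it on all 12, where a change is hard to see. Of 6 planned glucocorticoid receptor targets, 3 could be named, through the study's list of changed genes. They were thus chosen on these same arrays and are no independent check of the dexamethasone labels. TSC22D3, a classic target of the receptor, had a mean signal of 6.04 in control, 5.68 with PIM, 8.53 with Pd and 8.86 with PIM-Pd. FKBP5, also induced by the receptor, differed from control by -0.39 with PIM, 1.73 with Pd and 1.79 with PIM-Pd (SE 0.18), and KLF9 by 0.01, 0.32 and 0.55 (SE 0.15). The KLF9 difference with Pd did not pass (limma, adjusted p = 0.28), and its control mean of 4.62 lay below the array medians. The plasma cell markers CD38, SLAMF7 and DERL3 had control means of 8.46, 9.94 and 8.50, and the T cell marker CD3E had 4.63. No background level of the arrays was computed, so neither presence nor absence of a marker was called. SDC1, TNFRSF17 and most other plasma cell markers were not analysed here, since the sources used here pair few array identifiers with gene symbols.

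**Figure D1:**
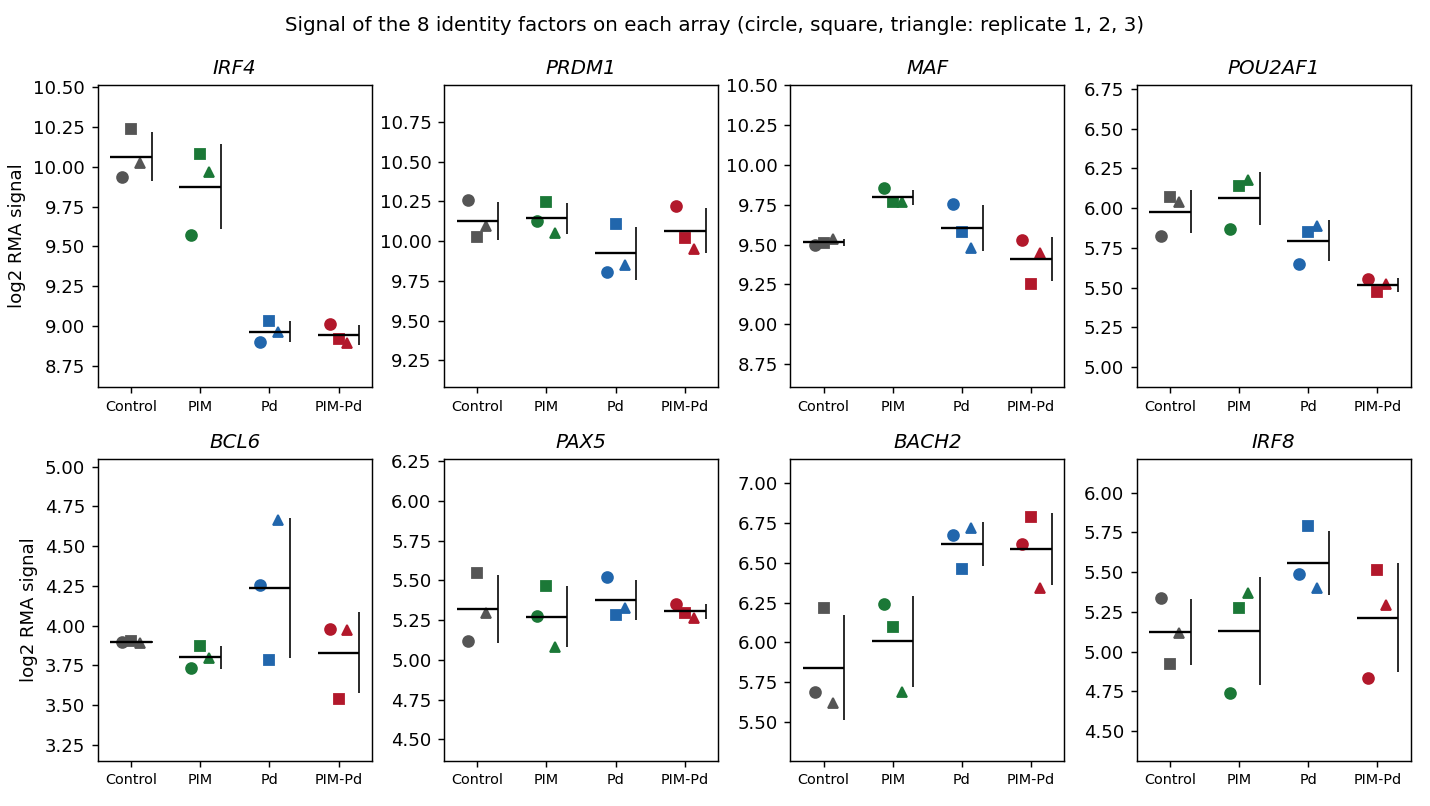
Log2 RMA signal (y axis) of the 8 factors on each of the 12 arrays by group (x axis), with a line at the mean of the 3 arrays, a side bar for ± 1 SD and every panel spanning the same height. IRF4 in Pd and PIM-Pd lies between 8.89 and 9.03, below all control and PIM arrays, and BACH2 in Pd and PIM-Pd lies between 6.34 and 6.79, above them. The share of all genes with such a split was not computed.

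IRF4 is the interferon regulatory factor on which myeloma cells depend. Its log2 signal was 9.94, 10.24 and 10.02 in control replicates 1, 2 and 3, and 9.57, 10.08 and 9.97 with PIM. It was 8.90, 9.03 and 8.96 with Pd and 9.01, 8.92 and 8.89 with PIM-Pd. All 6 arrays with pomalidomide and dexamethasone lay below the 6 arrays without them, and the PIM arrays overlapped control. Over all genes, arrays did not overlap control in 24.7% with Pd and in 24.7% with PIM-Pd, in either direction. PIM-Pd arrays did not overlap PIM in 17.8%. The share of all genes that split these 6 arrays from the other 6 was not computed. The order of the means was control, 10.07 ± 0.16 (SD, n = 3), then PIM, 9.88 ± 0.27, then Pd, 8.96 ± 0.07, then PIM-Pd, 8.94 ± 0.06.

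Only the step between PIM and the groups with Pd was larger than the spread between replicates. IRF4 fell by 1.10 (SE 0.13) on the log2 scale with Pd (limma, adjusted p = 0.00019) and by 1.12 (SE 0.13) with PIM-Pd (adjusted p = 0.00012). Within replicate numbers 1, 2 and 3 the difference from control was -1.04, -1.21 and -1.06 with Pd and -0.92, -1.32 and -1.13 with PIM-Pd. Counted from the largest fall among all 17710 genes, IRF4 stood at position 19 with Pd and 58 with PIM-Pd. Both comparisons share the same 3 control arrays.

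With PIM alone, the IRF4 difference from control was -0.19 (95% interval -0.47 to 0.10, adjusted p = 0.87). Leaving out single arrays moved it between -0.29, without PIM replicate 2, and -0.04, without PIM replicate 1. PIM-Pd and Pd differed by -0.02 (95% interval -0.31 to 0.26, adjusted p = 0.98), and neither interval reaches a 2-fold change in either direction. Against PIM, IRF4 with PIM-Pd was lower by a log2 difference of -0.93 (SE 0.13, adjusted p = 0.00067). The call of IRF4 against control with Pd and with PIM-Pd held under all 19 alternative settings, where the log2 difference ranged from -1.17 to -1.02 and from -1.19 to -1.04.

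PRDM1, the repressor that closes the B cell programme, showed no change past the threshold. Its signal was 10.26, 10.03 and 10.09 in control, 10.13, 10.25 and 10.05 with PIM, 9.81, 10.11 and 9.85 with Pd and 10.22, 10.02 and 9.95 with PIM-Pd. All 4 groups overlapped. The difference from control was 0.02 with PIM (95% interval -0.24 to 0.28), -0.20 with Pd (-0.46 to 0.05) and -0.06 with PIM-Pd (-0.32 to 0.20). None of these intervals reached the size of the IRF4 fall.

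POU2AF1 (OCA-B) is the B lineage coactivator that works with the OCT factors. Its signal was 5.82, 6.07 and 6.04 in control, 5.87, 6.14 and 6.18 with PIM, 5.65, 5.85 and 5.89 with Pd and 5.55, 5.47 and 5.52 with PIM-Pd. The PIM-Pd arrays lay below those of all other groups. Over all genes, PIM-Pd arrays did not overlap control in 24.7%, PIM in 17.8% and Pd in 14.5%. POU2AF1 fell by 0.46 (SE 0.12) on the log2 scale with PIM-Pd against control (adjusted p = 0.023) and by 0.55 (SE 0.12) against PIM (adjusted p = 0.013).

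The POU2AF1 difference was -0.18 with Pd against control (adjusted p = 0.52) and -0.28 for PIM-Pd against Pd (95% interval -0.53 to -0.03, adjusted p = 0.53). The fall against control was a narrow call. Adjusted p was 0.093 without control replicate 2, 0.091 without control replicate 3, 0.067 without PIM-Pd replicate 2, 0.059 without PIM-Pd replicate 3 and 0.054 with a trended and robust variance. Against PIM it was 0.060 when only the groups compared were fitted.

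MAF, which a translocation to the immunoglobulin heavy chain locus activates in MM.1S cells, gave 9.50, 9.51 and 9.54 in control and 9.85, 9.77 and 9.77 with PIM. It gave 9.76, 9.58 and 9.48 with Pd and 9.53, 9.25 and 9.44 with PIM-Pd. All PIM arrays lay above all control arrays and above all PIM-Pd arrays. Over all genes, PIM arrays did not overlap control in 11% and PIM-Pd in 17.8%. The PIM difference from control was 0.28 (95% interval 0.05 to 0.52), which did not pass after adjustment (adjusted p = 0.75).

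The largest MAF difference was between PIM-Pd and PIM, at -0.39 (SE 0.11, adjusted p = 0.054). With the replicate number as a block the adjusted p was 0.046. MAF was higher with PIM than control in 3 of 3 replicate numbers (0.36, 0.26 and 0.23) and lower with PIM-Pd than Pd in 3 of 3 (-0.23, -0.32 and -0.03). The test of this difference between differences did not pass (-0.48, SE 0.16, adjusted p = 0.74).

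BACH2, a repressor that delays plasma cell differentiation, was the member that rose. Its signal was 5.69, 6.22 and 5.62 in control and 6.24, 6.10 and 5.69 with PIM. It was 6.68, 6.46 and 6.72 with Pd and 6.62, 6.79 and 6.34 with PIM-Pd. All 6 arrays with pomalidomide and dexamethasone lay above the other 6, with the nearest values 6.24 and 6.34. Lack of overlap with control was found in 24.7% of all genes with Pd and in 24.7% with PIM-Pd. Between PIM-Pd and PIM it was found in 17.8%. The share of all genes that split these 6 arrays from the other 6 was not computed.

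BACH2 rose by 0.78 (SE 0.18) with Pd (adjusted p = 0.019) and by 0.74 (SE 0.18) with PIM-Pd (adjusted p = 0.016). Means ran from control, 5.84 ± 0.33 (SD, n = 3), and PIM, 6.01 ± 0.29, to PIM-Pd, 6.59 ± 0.23, and Pd, 6.62 ± 0.14. Within replicate numbers 1, 2 and 3 the Pd difference was 0.99, 0.24 and 1.10 and the PIM-Pd difference 0.93, 0.57 and 0.72. PIM-Pd and Pd differed by -0.03 (95% interval -0.42 to 0.35).

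The BACH2 rise with Pd and with PIM-Pd kept its direction under all 19 settings, but its call depended on single arrays. The adjusted p with Pd was 0.092 without control replicate 1, 0.092 without control replicate 3, 0.078 without Pd replicate 1 and 0.086 without Pd replicate 3. With PIM-Pd it was 0.071 without control replicate 1, 0.080 without control replicate 3 and 0.064 without PIM-Pd replicate 2. PIM-Pd against PIM gave 0.58 (SE 0.18, adjusted p = 0.077, and 0.048 with the replicate block).

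PAX5, the factor that maintains B cell identity, gave 5.12, 5.55 and 5.30 in control, 5.27, 5.46 and 5.08 with PIM, 5.52, 5.28 and 5.33 with Pd and 5.35, 5.30 and 5.26 with PIM-Pd. The groups overlapped fully. Its differences from control were -0.05 with PIM, 0.06 with Pd and -0.02 with PIM-Pd, and the 3 intervals together spanned -0.33 to 0.34.

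BCL6, the master repressor of the germinal centre, gave 3.90, 3.90 and 3.89 in control and 3.73, 3.87 and 3.80 with PIM. It gave 4.26, 3.78 and 4.66 with Pd and 3.98, 3.54 and 3.97 with PIM-Pd. All PIM arrays lay below control, with the nearest values 3.87 and 3.89, and 11% of all genes did not overlap there. The Pd arrays spread most, with an SD of 0.44 (n = 3) against 0.0058 in control. The Pd difference of 0.34 (95% interval -0.05 to 0.72) did not pass (adjusted p = 0.38), nor did PIM-Pd against Pd at -0.40 (adjusted p = 0.55).

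IRF8, the relative of IRF4 that acts in germinal centre B cells and myeloid cells, gave 5.34, 4.92 and 5.12 in control and 4.74, 5.27 and 5.37 with PIM. It gave 5.49, 5.79 and 5.40 with Pd and 4.84, 5.51 and 5.29 with PIM-Pd. All Pd arrays lay above control, by as little as 0.06 log2 units at the nearest values of 5.34 and 5.40. Pd arrays did not overlap control in 24.7% of all genes. The Pd difference of 0.43 (95% interval 0.02 to 0.85) did not pass after adjustment (adjusted p = 0.26), and with PIM-Pd it was 0.09 (-0.32 to 0.50).

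**Figure D2:**
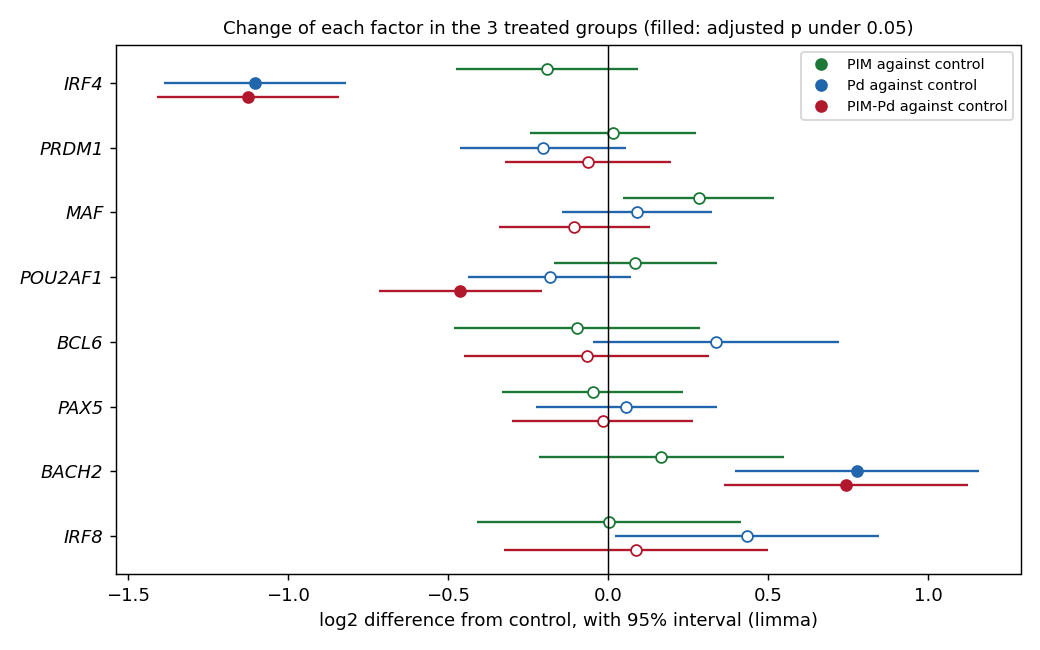
Log2 difference from control (x axis) with its 95% interval for each factor (y axis) in the PIM, Pd and PIM-Pd groups, filled where adjusted p is under 0.05. IRF4 lies at -1.10 and -1.12 and BACH2 at 0.78 and 0.74 with Pd and PIM-Pd, POU2AF1 is filled with PIM-Pd at -0.46, and no PIM point is filled.

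Among the 8 genes, 2 were called with Pd (IRF4 lower, BACH2 higher), against 5.42% of all 17710 genes in that comparison. With PIM-Pd 3 were called (IRF4 and POU2AF1 lower, BACH2 higher), against 9.44% of all genes. For PIM-Pd against PIM 2 were called (IRF4 and POU2AF1, both lower), against 5.66% of all genes. With the replicate block 4 were called there, MAF (lower) and BACH2 (higher) being added, against 7.13% of all genes. The median log2 difference of the 8 genes was 0.07 with Pd and -0.06 with PIM-Pd, beside -0.01 and 0.01 over all genes. Arrays did not overlap control for 3 of the 8 genes with Pd (24.7% of all genes) and 3 with PIM-Pd (24.7%). With PIM it was 2, MAF and BCL6 (11%). PIM-Pd did not overlap PIM for 4 (17.8%) and Pd for 1 (14.5%).

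With PIM against control limma called 0 of the 8 genes and 0% of all genes, and 1 of the 8 (MAF) had an unadjusted p under 0.05, as did 1098 of all genes. PIM-Pd against Pd called 0 of the 8 and 0.0791% of all genes, with 2 of the 8 (POU2AF1 and BCL6, both lower) and 1518 of all genes at an unadjusted p under 0.05.

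Whether the triple combination departed from the sum of its arms was read from the interaction, PIM-Pd minus Pd minus PIM plus control. It called 0 of the 8 genes and 0.0169% of all genes, and MAF and POU2AF1 were 2 of 1033 genes with an unadjusted p under 0.05. For IRF4 it was 0.17 (95% interval -0.23 to 0.57), for POU2AF1 -0.36 (-0.72 to -0.01, adjusted p = 0.85) and for BACH2 -0.20 (-0.74 to 0.34). The different exposure times of the 3 arms enter this contrast too.

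**Figure D3:**
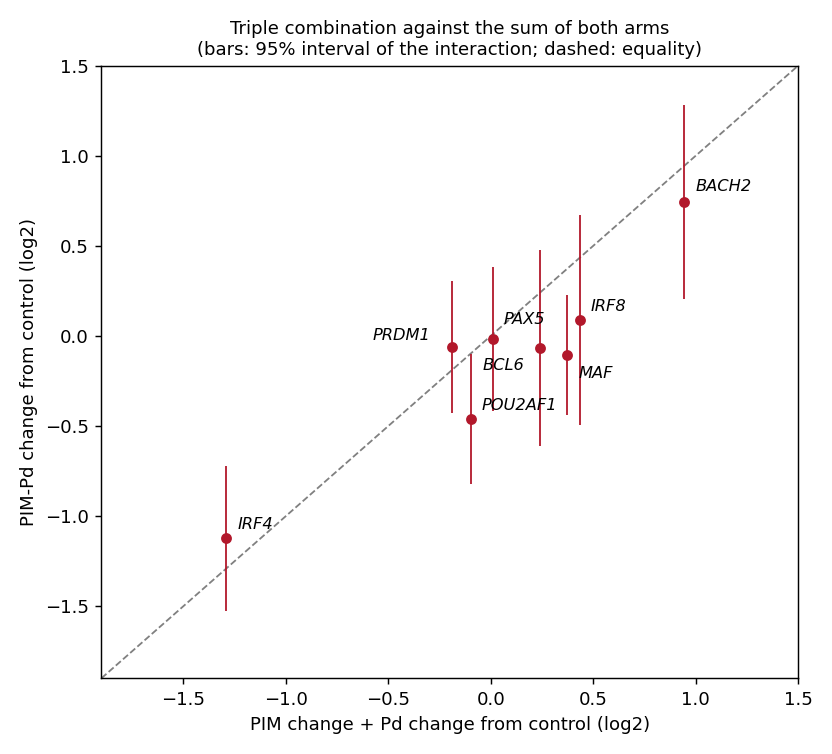
PIM-Pd change from control (y axis, log2) against the sum of the PIM and Pd changes (x axis, log2) for the 8 factors, with the 95% interval of the interaction as bars and equality as a dashed line. The interval of MAF, with an interaction of -0.48, ends below the line and that of POU2AF1, at -0.36, just short of it, although neither passed the test after adjustment, and IRF4 lies 0.17 above it.

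Genes that work with these factors could be named only where the study's own list of changed genes pairs an identifier with a symbol. They were thus chosen on these same arrays. Apart from SLAMF7, those named were then picked because limma called them in at least 1 pairwise contrast. Their values are therefore a description, no count is made over the lists, and no test of them is used as support. All are log2 differences from control, given with Pd and then with PIM-Pd unless PIM is named. With PIM alone the 14 genes plotted ranged from -0.26 for CCND2 to 0.75 for ZBTB20, and none passed the limma test. Some values below also did not pass at adjusted p under 0.05. These are MYC, NUAK1, ID2, DEPTOR and CD38 with Pd, IRF1 with PIM-Pd, and SLAMF7 with both.

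Among partners and regulators of IRF4, IKZF1, whose protein pomalidomide targets, differed by 0.91 and 0.85 (SE 0.17) in mRNA. STAT3, which carries IL-6 signals in myeloma, differed by 0.97 and 0.88 (SE 0.14). ETS1, an ETS family factor of lymphocytes, differed by -0.96 and -1.45 (SE 0.17), and its means of 4.74 and 4.25 there lay below the array medians. MYC, a target of IRF4 in myeloma, differed by -0.44 and -0.85 (SE 0.15). IKZF1 and STAT3 were thus higher while IRF4 was lower, and ETS1 and MYC were lower with it, although MYC with Pd did not pass (limma, adjusted p = 0.11). IRF1, an interferon-induced member of the IRF family, differed by 0.52 and 0.38 (SE 0.12).

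CIITA, the class II MHC activator that PRDM1 is known to repress, differed by 1.06 and 1.43 (SE 0.20), while PRDM1 itself differed by -0.20 and -0.06. MYC, a further gene known to be repressed by PRDM1, was lower as given above. ID2, an inhibitor of E proteins, differed by 0.61 and 0.78 (SE 0.17), and ZBTB20, a zinc finger factor of B lineage cells, by 0.75 with PIM, 1.17 with Pd and 1.32 with PIM-Pd (SE 0.15). The ZBTB20 difference with PIM did not pass (limma, adjusted p = 0.67), and its control mean of 4.10 lay below the array medians.

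Of genes known to be driven by MAF in myeloma, CCND2 (cyclin D2) differed by -0.47 and -1.07 (SE 0.11). NUAK1, an AMPK-related kinase, differed by -0.70 and -1.71 (SE 0.31), and DEPTOR, an mTOR-binding protein, by 0.09 and -0.80 (SE 0.17). The PIM-Pd arrays of both genes spread widely. NUAK1 ran from 4.87 to 6.46 there (SD 0.83, against 0.28 in control). DEPTOR ran from 8.27 to 9.08 (SD 0.45, against 0.0099 in control). MAF mRNA differed by 0.09 and -0.10 in the same arrays. Among surface and secretory markers, CD38 differed by 0.17 and 0.42 (SE 0.12), DERL3 by 0.53 and 0.63 (SE 0.11), SLAMF7 by -0.50 and -0.19 (SE 0.16), and the B cell complement receptor CR2 by -0.80 and -0.88 (SE 0.22). The CR2 means of 4.46 with Pd and 4.38 with PIM-Pd lay below the array medians.

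**Figure D4:**
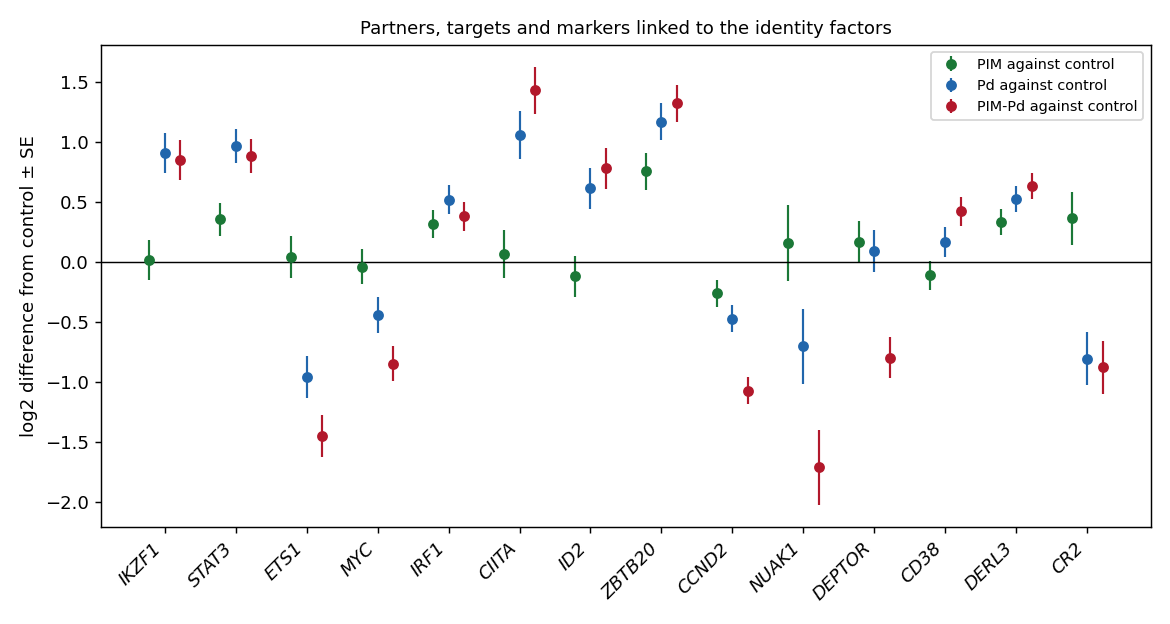
Log2 difference from control ± SE (y axis) of 14 named partners, targets and markers (x axis) in the PIM, Pd and PIM-Pd groups. IKZF1, STAT3, CIITA and ZBTB20 lie above 0 and ETS1, CCND2 and NUAK1 below it with both Pd and PIM-Pd, and DEPTOR is below 0 only with PIM-Pd, at -0.80.

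The genes most like IRF4 across the 12 arrays were E2F1, GREB1, CCDC167, MSMO1 and STK38L. Likeness was the root mean square difference from IRF4 in log2 signal relative to each gene's own control mean, over 1904 named genes, and it ran from 0.19 for E2F1 to 0.22 for STK38L. They were also the 5 nearest among all genes of the table. E2F1 differed from control by -1.06 with Pd and -1.32 with PIM-Pd, and CCDC167 by -1.21 and -1.10.

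In RNA from whole cultures, fewer cells carrying a transcript and less of it in each cell cannot be told apart. RMA aligns the probe intensities of the arrays, so a shift shared by all genes would be largely removed.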

How the data were processed

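RNA of MM.1S cells was hybridised to Clariom S human arrays. The authors normalised the scans by RMA in oligo 1.44.0 under R 3.5.0 with a custom BrainArray gene definition, and deposited log2 signals per Ensembl gene, which were used as given. Identifiers of the listed genes came with the rule, and other symbols from the identifier and symbol columns of the study's list of changed genes, of which 1905 matched 1 row. Planned gene list counts and an array background level were therefore not computed. Columns of the authors' own fold changes were not used.

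All 12 arrays of 4 groups were fitted without a block in limma 3.58.1 (R 4.3.3), with Benjamini-Hochberg adjustment over 17710 genes, two-sided, and genes were called at adjusted p under 0.05. The study used SAM, which was not run. The interval is 95%, and the script was tested on simulated data. The number of arrays limits the precision.

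The sample label carries the word pairs, which was read as pairing the arrays of the same replicate number. The main fit left this pairing out, so its intervals and adjusted p are unpaired. The replicate block was an alternative setting. The correlations supported the pairing only in part. Deviations from the group means correlated between same-numbered arrays at a median r of 0.10 (range -0.10 to 0.30, 18 pairs, 9 over 0.1). Between differently numbered arrays of different groups the median r was -0.04 (range -0.35 to 0.20, 36 pairs, 3 over 0.1). No arrays of a group held the same values (at most 0.0226% identical).

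All 9 genes are named. From each list, genes called in at least 1 pairwise contrast were named, at most 4 with the largest difference, and the 5 most like IRF4. SLAMF7 and CD3E were added after their values were seen. The members and lists were chosen with earlier results of these data known.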

Additional observations from a re-analysis of the deposited data

How the results depend on the processing

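The direction of every called value of the 8 genes held under 19 alternatives. Of 898 single-gene values, 874 kept their side of the threshold, 18 lost a call, 6 gained one and 0 reversed, and 33 values that were never called changed sign. Requiring at least 2-fold as well left 1 gene called with Pd, 1 with PIM-Pd and 0 for PIM-Pd against PIM, each IRF4 where 1 was left. With the replicate block, a paired fit, 4 genes were called for PIM-Pd against PIM and no other call of the 8 genes changed, while calls over all genes rose from 960 to 1181 with Pd, from 1671 to 1934 with PIM-Pd and from 1003 to 1262 for PIM-Pd against PIM. Fitting only the groups compared called 1 there. Leaving out 1 array gave 1 to 2 genes called with Pd, 1 to 3 with PIM-Pd and 2 to 3 for PIM-Pd against PIM. The other calls of MAF for PIM-Pd against PIM came with the dim features left out (adjusted p = 0.047, chosen after seeing the data), with arrays centred on their median (0.046) and with a trended and robust variance (0.033), and that of BACH2 without control replicate 2 (0.048).

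Over all genes, counts moved by more than 1.5 times from 960 with Pd to 191 at 2-fold or more and to 497 to 608 without control replicate 1 or 3 or Pd replicate 1 or 3. They moved from 1671 with PIM-Pd to 255 at 2-fold or more and 1096 without control replicate 3. For PIM-Pd against PIM they went from 1003 to 173 at 2-fold or more, 455 with only the groups compared and 648 without PIM-Pd replicate 3. For PIM-Pd against Pd the count of 14 ranged from 1 to 26, and for the interaction 3 ranged from 0 to 3. The causes were not tested. The planned filter at the array background and the counts of gene lists were not run, since too few identifiers could be named.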
